A study of Homo sapiens and Mus musculus with 28 samples.

Results

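Homologous recombination and Fanconi repair genes were followed through the 8 groups of SCC1 libraries in a study of REXO4, an RNA exonuclease. SCC1 is an established human line of squamous carcinoma cells from the head and neck. The set holds 42 genes, found by their symbols among the 35135 gene IDs of the SCC1 count files, 1 row per ID. Polyadenylated RNA was sequenced from 24 SCC1 libraries, 3 in each group, and the 4 mouse tumor libraries of the series were not used here. The knockout experiment of 15 libraries held KO_2 BX_795 and KO_2 H151, which are KO_2 cells given the inhibitor BX-795 or H-151, then R4KO_2 Vehicle and R4KO_1 Vehicle, which are 2 REXO4 knockouts given vehicle, and Ctrl Vehicle, control cells given vehicle. The iR4 experiment of 9 libraries held H151_iR4, iR4 and Vehicle; the labels do not spell out iR4, so the name is kept as given. H-151 binds covalently to STING, an adaptor of DNA sensing, and blocks it. BX-795 blocks TBK1, the kinase that STING activates, and some other kinases. The labels give no dose, time or knockout allele, and no word on whether a knockout is 1 clone. What separates the replicates of a group is not given either, so p-values measure the spread between these libraries.

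A double-strand break in DNA is first bound by the MRE11-RAD50-NBN complex, which activates the kinase ATM, while MDC1 and TP53BP1 gather around the break. In homologous recombination the broken ends are resected, single-stranded DNA activates ATR and CHEK1, and BRCA1, PALB2 and BRCA2 act on the resected ends, so that an undamaged sister copy is used as the template. In the Fanconi pathway a core ubiquitin ligase complex marks FANCD2 and FANCI at interstrand crosslinks, and the lesion is then cut and handed to recombination. Non-homologous end joining is the competing route: the Ku proteins XRCC5 and XRCC6 hold the ends, PRKDC is the kinase they recruit, and LIG4 seals them. Many of these genes are transcribed most in S and G2 phase, and R-loops, RNA-DNA hybrids that the study's title names, are a known source of breaks at replication forks.

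The promoters of 6 members are shown so that genes that were higher in the REXO4 knockouts (BRCA2, BRIP1 and FANCE) can be read beside genes that were lower in them (RAD50, XRCC6 and FANCF). RefSeq promoter entries (GRCh38.p14) were found for 37 of the 42 members, and the 250 bases before the RefSeq start are printed 5′ to 3′ on the gene's own strand, with capitals marking a CCAAT box (CCAAT, or ATTGG on the other strand) or a cell cycle homology region (TTTGAA or TTCGAA, or TTCAAA on the other strand). The windows were chr13:32315258-32315507, plus strand, for BRCA2, chr17:61863529-61863778, minus strand, for BRIP1 and chr6:35452088-35452337, plus strand, for FANCE. Those of the lower genes were chr5:132556727-132556976, plus strand, for RAD50, chr22:41621045-41621294, plus strand, for XRCC6 and chr11:22625824-22626073, minus strand, for FANCF.
BRCA2: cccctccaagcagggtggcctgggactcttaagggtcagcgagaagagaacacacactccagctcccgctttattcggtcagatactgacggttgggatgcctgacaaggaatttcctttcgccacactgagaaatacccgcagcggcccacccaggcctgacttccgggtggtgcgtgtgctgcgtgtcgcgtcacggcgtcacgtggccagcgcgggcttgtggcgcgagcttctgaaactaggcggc
BRIP1: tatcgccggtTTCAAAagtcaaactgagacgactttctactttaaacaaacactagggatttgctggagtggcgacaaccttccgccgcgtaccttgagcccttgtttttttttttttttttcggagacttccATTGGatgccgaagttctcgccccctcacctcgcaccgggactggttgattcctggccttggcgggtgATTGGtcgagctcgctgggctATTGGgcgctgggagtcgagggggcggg
FANCE: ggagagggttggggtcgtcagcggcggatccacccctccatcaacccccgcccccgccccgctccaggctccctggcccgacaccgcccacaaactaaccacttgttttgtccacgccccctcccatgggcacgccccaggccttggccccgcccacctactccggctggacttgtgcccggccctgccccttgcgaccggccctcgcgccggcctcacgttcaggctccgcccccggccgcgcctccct
RAD50: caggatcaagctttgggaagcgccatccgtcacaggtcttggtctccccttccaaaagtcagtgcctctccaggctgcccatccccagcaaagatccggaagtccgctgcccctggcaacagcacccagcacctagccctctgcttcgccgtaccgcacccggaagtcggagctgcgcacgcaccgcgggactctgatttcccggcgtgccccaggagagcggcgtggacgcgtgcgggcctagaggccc
XRCC6: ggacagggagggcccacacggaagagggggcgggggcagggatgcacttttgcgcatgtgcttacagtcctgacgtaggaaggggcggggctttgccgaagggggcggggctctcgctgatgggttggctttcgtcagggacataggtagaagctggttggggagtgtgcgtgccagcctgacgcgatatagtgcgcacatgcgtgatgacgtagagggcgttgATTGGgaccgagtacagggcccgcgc
FANCF: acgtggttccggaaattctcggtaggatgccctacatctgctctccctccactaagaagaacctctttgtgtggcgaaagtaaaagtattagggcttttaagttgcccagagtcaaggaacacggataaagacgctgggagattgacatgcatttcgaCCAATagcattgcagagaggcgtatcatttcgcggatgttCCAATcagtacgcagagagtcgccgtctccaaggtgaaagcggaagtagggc

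Among the printed sequences, BRIP1 held 3 CCAAT boxes and 1 cell cycle homology region, FANCF held 2 CCAAT boxes, XRCC6 held 1, and BRCA2, FANCE and RAD50 held none of the letters searched. Over windows of 300 bases (250 before and 50 after the start, both strands), an E2F site (TTTGGCGC, TTTCGCGC or TTTCCCGC) was present in 7 of 37 members, or 18.9%, against 2.74% of all 35116 promoters in the table. A CCAAT box was present in 17 of 37 members, or 45.9%, against 34.6% of all promoters. A cell cycle homology region was present in 4 of 37 members, or 10.8%, against 16.4% of all promoters, and TATAAA was in 0 of 37, against 11.5%. A match is a description of letters, and other windows were not searched. In the 1 entry used per gene, none of the 5 BRCA complex promoters held an E2F site. XRCC6 held 1, which lay across its start or in the 50 bases after it. The 250 bases of the BRCA1 entry lay at chr17:43170328-43170577. Other starts of BRCA1 or of any other member were not searched, so the absence covers these entries only.

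The labels and the libraries were checked first. REXO4 averaged 6.399 ± 1.18 CPM in R4KO_2 Vehicle and 9.58 ± 0.354 CPM in R4KO_1 Vehicle, against 74.99 ± 3.01 CPM in Ctrl Vehicle (mean ± SD, n = 3 in each group throughout; CPM are counts per 1000000 counts of a library, scaled by TMM within each experiment). It averaged 19.1 ± 0.449 CPM in KO_2 BX_795 and 18.1 ± 1.49 CPM in KO_2 H151, above R4KO_2 Vehicle, and 89.5 ± 2.21 CPM in H151_iR4 and 60.2 ± 2.84 CPM in iR4, against 94 ± 3.43 CPM in Vehicle. The KO_2 inhibitor libraries did not line up with either knockout in every transcript. Of 3 genes picked after their values were seen, PXDN averaged 12.6 CPM in KO_2 BX_795, 10.98 CPM in KO_2 H151, 0.14 CPM in R4KO_2 Vehicle, 8.21 CPM in R4KO_1 Vehicle and 0.04 CPM in Ctrl Vehicle. SLC12A3 was likewise higher in R4KO_1 than in R4KO_2, at 8.07 against 0.27 CPM. It averaged 14.9 CPM in KO_2 BX_795, 25.2 CPM in KO_2 H151 and 0.22 CPM in Ctrl Vehicle. ESM1 went the other way between the knockouts, at 9.39 CPM in KO_2 BX_795, 8.85 CPM in KO_2 H151, 1.99 CPM in R4KO_2 Vehicle, 0.07 CPM in R4KO_1 Vehicle and 0.06 CPM in Ctrl Vehicle. Inhibitor results in KO_2 cells were therefore also computed against R4KO_1 Vehicle. Depth ran from 16.04 to 27.94 M counts per library, and the KO_2 inhibitor libraries (21.36 to 27.94 M) were deeper than the rest of the knockout experiment (17.47 to 18.03 M). All 9 squamous carcinoma markers were above 1 CPM, summing to between 1963 CPM in a KO_2 H151 library and 4359 CPM in a Ctrl Vehicle library, while 6 leukocyte markers summed to at most 0.917 CPM and 4 endothelial markers to at most 2.14 CPM. The 6 fibroblast markers, carried by COL1A1, summed to 45.94 to 47.83 CPM in KO_2 BX_795, 38.13 to 39.29 in KO_2 H151, 39.08 to 42.78 in R4KO_2 Vehicle and 39.05 to 43.18 in R4KO_1 Vehicle, against 23.79 to 24.57 CPM in Ctrl Vehicle. They summed to 24.64 to 26.67 CPM in H151_iR4 and 32.81 to 38.55 CPM in iR4, against 21.66 to 24.81 CPM in Vehicle. COL3A1 and LUM did not follow these sums. COL3A1 averaged 0.24 CPM in KO_2 BX_795 and 0.19 CPM in KO_2 H151, against 5.85 CPM in R4KO_2 Vehicle and 2.055 CPM in Ctrl Vehicle. LUM averaged 0.33, 0.44, 5.76 and 0.45 CPM in the same order. In the iR4 experiment, COL3A1 averaged 0.63 CPM in iR4, against 0.98 CPM in Vehicle. The part of these marker differences in the results was not tested.

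Levels of the 42 genes per length spanned more than 3 orders of magnitude only with ATRIP counted, whose low value is qualified below. In Ctrl Vehicle, XRCC6 was highest at 242 ± 3.02 CPM per kb of exon, followed by XRCC5 at 104.4 ± 2.44, PARP1 at 97.8 ± 0.387 and PRKDC at 46.8 ± 1.92 CPM per kb. XRCC5 and PARP1 stood apart by more than their SDs, as did PRKDC from TOPBP1, the ATR activator, at 27.8 ± 0.713 CPM per kb. FANCI, NBN and MDC1 came next at 21.8 ± 0.752, 21.2 ± 0.348 and 20.9 ± 0.924 CPM per kb and did not differ beyond their spread. At the low end, RAD51D stood at 1.83 ± 0.157, RAD51B at 0.898 ± 0.0889 and ATRIP at 0.0800 ± 0.0170 CPM per kb. The length is that of all annotated exons merged, 11304 bases for RAD51D, so this order depends on the annotation. Without the division by length, RAD51D averaged 20.7 CPM, above FANCB at 17.8 and RAD54B at 14.6 CPM, which both ranked above it per kb. ATRIP, the partner that brings ATR to single-stranded DNA, had only 16 to 40 counts per group of 3 libraries. It shares its ID with the symbol ATRIP-TREX1. TREX1 overlaps it on the same strand, and how reads shared by overlapping genes were counted is not known. ATRIP passed the filter on low counts in the iR4 experiment alone. Thus 41 members were tested in the knockout experiment and 42 in the iR4 experiment.

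The comparisons of R4KO_2 and R4KO_1 with Ctrl Vehicle ask what the repair genes did when REXO4 was lost, and both directions were common. In R4KO_2, 15 members were higher and 17 lower than in Ctrl Vehicle at an edgeR adjusted p under 0.05, where 34% of all 14348 genes tested were higher and 32.2% lower. In R4KO_1, 13 members were higher and 16 lower, where 33% of all genes tested were higher and 31.4% lower. In either direction that is 78.0% of the tested members in R4KO_2 and 70.7% in R4KO_1, against backgrounds of 66.2% and 64.5% of all genes. The members' median log2 fold change was -0.06 in R4KO_1 and -0.0001 in R4KO_2, where the median of all genes was 0.02 in each. The set as a whole therefore did not move one way, and RAD51B was its only member that changed 2-fold or more, where 11.4% of all genes did so in R4KO_2 and 10.1% in R4KO_1. These 2 comparisons share the Ctrl Vehicle libraries, and a bulk library cannot tell fewer cells with a transcript from less of it per cell.

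The iR4 comparison was run in its own experiment and shares no library with the knockouts. In iR4, 17 of 42 members were higher and 13 lower than in Vehicle, where 37.1% of all 14000 genes tested were higher and 34.8% lower (71.9% in either direction, against 71.4% of the members). The inhibitor comparisons ask how KO_2 or iR4 cells given an inhibitor differed from R4KO_2 Vehicle or iR4. No group held control cells given an inhibitor alone. A change particular to knockout or iR4 cells therefore cannot be told from a general effect of the inhibitor. In KO_2 cells, the inhibitor also cannot be told apart from the differences in depth, REXO4 and PXDN given above. With BX-795 in KO_2 cells, 10 members were higher and 18 lower than in R4KO_2 Vehicle, where 36.4% of all genes were higher and 37.1% lower (73.6% in either direction, against 68.3% of the members). With H-151 in KO_2 cells, 10 were higher and 19 lower, where 35.7% of all genes were higher and 37% lower (72.7%, against 70.7% of the members). With H-151 in iR4 cells, 14 were higher and 16 lower than in iR4, where 35.1% of all genes were higher and 36.3% lower (71.4% of all genes and 71.4% of the members). Calls were thus about as frequent among the repair genes as among all genes, and the results lie in which members moved and in which direction, as the plot of fold changes by role shows.

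**Figure D1:**
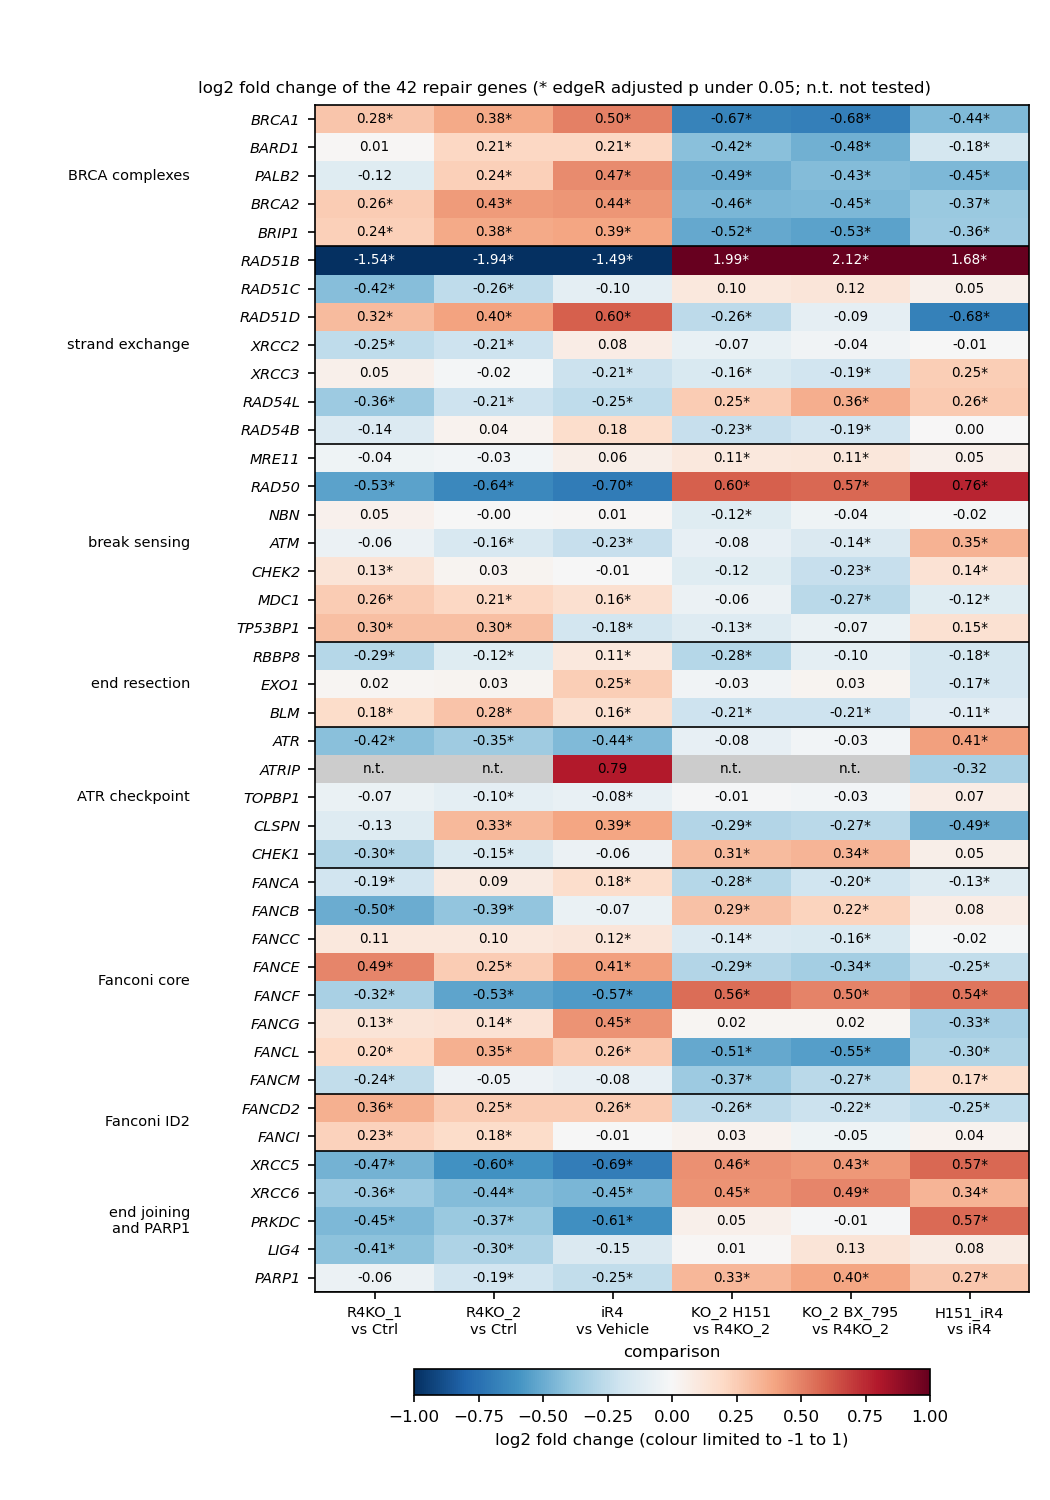
log2 fold changes (colour and printed value) of the 42 repair genes, in rows grouped by role, in 6 comparisons, in columns; an asterisk marks an edgeR adjusted p under 0.05, n.t. a gene not tested, and colour is limited to -1 to 1. The 5 BRCA complex genes are red or pale in the 3 left columns and blue in the 3 right ones, while RAD51B, RAD50, XRCC5 and XRCC6 have the opposite colours. The R4KO_2 and iR4 columns share libraries with the right columns, which by itself favours opposite colours.

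BRCA1 and its partners moved together in most comparisons. All 5 members of the BRCA complexes were higher in R4KO_2 and in iR4, and 3 of 5 were higher in R4KO_1. All 5 were lower in each of the 3 inhibitor comparisons, where the backgrounds are those given above. The R4KO_2 Vehicle and iR4 libraries enter both the rises and the falls, so these opposite directions are not independent results. BRCA1 (ENSG00000012048, chr17:43044295-43170245, minus strand; positions are GRCh38, GENCODE v29) is a ubiquitin ligase that promotes resection and recruits PALB2. It had 119.8, 122 and 120.4 CPM in R4KO_2 Vehicle and 118, 114 and 106 CPM in R4KO_1 Vehicle, against 92.5, 88.2 and 97.8 CPM in Ctrl Vehicle, so that all 6 knockout libraries lay above all 3 control libraries. It had 74.3, 74.9 and 76 CPM in KO_2 BX_795 and 73.3, 77.03 and 77.01 CPM in KO_2 H151, against a mean of 121 ± 1.005 CPM in R4KO_2 Vehicle, and each inhibitor library lay below every R4KO_2 and every Ctrl Vehicle library. In the iR4 experiment BRCA1 had 82.1, 82.7 and 84.9 CPM in H151_iR4 and 113, 108 and 118 CPM in iR4, against 80.3, 81.7 and 77.7 CPM in Vehicle. The iR4 libraries stood clear above both other groups. For BRCA1, edgeR gave log2 fold changes of 0.38 (SE 0.045, adjusted p = 1.89e-07) in R4KO_2, 0.28 (SE 0.046, adjusted p = 1.36e-05) in R4KO_1 and 0.50 (SE 0.039, adjusted p = 1.96e-11) in iR4. The inhibitor fold changes of BRCA1 were -0.68 (SE 0.045, adjusted p = 7.3e-12) with BX-795 in KO_2, -0.67 (SE 0.045, adjusted p = 1.06e-11) with H-151 in KO_2 and -0.44 (SE 0.039, adjusted p = 2.39e-10) with H-151 in iR4 cells. BARD1 (ENSG00000138376, chr2:214725646-214809711, minus strand), the obligate RING partner of BRCA1, had 42.7, 41.7 and 38.5 CPM in R4KO_2 Vehicle and 38.95, 35.3 and 32.95 CPM in R4KO_1 Vehicle, against 37.5, 32.4 and 36.5 CPM in Ctrl Vehicle. Only the R4KO_2 libraries cleared the control range, and the R4KO_1 libraries overlapped it. BARD1 then had 30.04, 29.3 and 28.6 CPM in KO_2 BX_795 and 29.6, 32.9 and 29.6 CPM in KO_2 H151, against a mean of 40.98 ± 2.21 CPM in R4KO_2 Vehicle. All 6 inhibitor libraries lay below the R4KO_2 libraries. BARD1 had 34.7, 38.02 and 34.6 CPM in H151_iR4 and 40.4, 39.3 and 42.1 CPM in iR4, against 35.8, 32.9 and 36.6 CPM in Vehicle, and the iR4 libraries lay above the other 6. For BARD1, edgeR gave 0.21 (SE 0.068, adjusted p = 0.0105) in R4KO_2, 0.011 (SE 0.069, adjusted p = 0.901) in R4KO_1 and 0.21 (SE 0.055, adjusted p = 0.00146) in iR4. With inhibitor, BARD1 changed by -0.48 (SE 0.067, adjusted p = 1.06e-06) with BX-795 in KO_2, -0.42 (SE 0.067, adjusted p = 7.58e-06) with H-151 in KO_2 and -0.18 (SE 0.055, adjusted p = 0.00596) with H-151 in iR4 cells. The BARD1 rise in R4KO_2 was lost without Ctrl Vehicle replicate 2 (edgeR adjusted p = 0.0837) or R4KO_2 replicate 1 (edgeR adjusted p = 0.0508).

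PALB2 (ENSG00000083093, chr16:23603160-23641310, minus strand), the bridge between BRCA1 and BRCA2, had 32.2, 33.8 and 34.2 CPM in R4KO_2 Vehicle and 23.6, 28.8 and 25.6 CPM in R4KO_1 Vehicle, against 27.5, 26.8 and 30.6 CPM in Ctrl Vehicle. R4KO_2 lay above the control libraries, whereas the R4KO_1 libraries overlapped them. It had 25.1, 24.9 and 24.4 CPM in KO_2 BX_795 and 24.8, 24.6 and 22.1 CPM in KO_2 H151, against a mean of 33.4 ± 1.02 CPM in R4KO_2 Vehicle, with no overlap. In the iR4 experiment PALB2 had 26.8, 28.4 and 27.1 CPM in H151_iR4 and 39.3, 37.6 and 36.1 CPM in iR4, against 28.2, 26.6 and 26.6 CPM in Vehicle. The iR4 libraries were again the highest of the 9. For PALB2, edgeR gave log2 fold changes of 0.24 (SE 0.07, adjusted p = 0.00499) in R4KO_2, -0.12 (SE 0.072, adjusted p = 0.141) in R4KO_1 and 0.47 (SE 0.055, adjusted p = 2.85e-08) in iR4. With inhibitor, PALB2 changed by -0.43 (SE 0.068, adjusted p = 7.17e-06) with BX-795 in KO_2, -0.49 (SE 0.069, adjusted p = 1.41e-06) with H-151 in KO_2 and -0.45 (SE 0.055, adjusted p = 7.26e-08) with H-151 in iR4 cells. The PALB2 falls in KO_2 cells depended on which knockout they were set against: relative to R4KO_1 Vehicle they were -0.069 with BX-795 (edgeR adjusted p = 0.393) and -0.13 with H-151 (edgeR adjusted p = 0.114). PALB2 was also among the members that differed between the knockouts, at 0.36 (SE 0.07, adjusted p = 0.000405) in R4KO_2 against R4KO_1 by edgeR. BRCA2 (ENSG00000139618, chr13:32315474-32400266, plus strand), which acts on single-stranded DNA at resected ends, had 57.2, 56.7 and 60.5 CPM in R4KO_2 Vehicle and 51.6, 51.7 and 51.4 CPM in R4KO_1 Vehicle, against 46.02, 39.6 and 43.8 CPM in Ctrl Vehicle. The knockout libraries lay above the control libraries, and R4KO_2 above R4KO_1. It had 43.2, 43.9 and 40.3 CPM in KO_2 BX_795 and 42.7, 43.1 and 41.2 CPM in KO_2 H151, against a mean of 58.1 ± 2.05 CPM in R4KO_2 Vehicle, and all 6 inhibitor libraries lay within the Ctrl Vehicle range. It had 50.1, 52.03 and 49.8 CPM in H151_iR4 and 66.2, 60.9 and 68.96 CPM in iR4, against 51.5, 45.7 and 47.9 CPM in Vehicle, with the iR4 libraries on top. For BRCA2, edgeR gave 0.43 (SE 0.054, adjusted p = 4.03e-07) in R4KO_2, 0.26 (SE 0.055, adjusted p = 0.000305) in R4KO_1 and 0.44 (SE 0.051, adjusted p = 2.61e-08) in iR4. With inhibitor, BRCA2 changed by -0.45 (SE 0.052, adjusted p = 7.72e-08) with BX-795 in KO_2, -0.46 (SE 0.052, adjusted p = 7.29e-08) with H-151 in KO_2 and -0.37 (SE 0.051, adjusted p = 5.09e-07) with H-151 in iR4 cells. BRIP1 (ENSG00000136492, chr17:61681266-61863521, minus strand), a helicase that binds BRCA1 and is also a Fanconi protein, had 38.1, 39.2 and 37.5 CPM in R4KO_2 Vehicle and 38.6, 33.6 and 31.8 CPM in R4KO_1 Vehicle, against 29.7, 28.96 and 29.6 CPM in Ctrl Vehicle. It had 26.6, 28.8 and 24.3 CPM in KO_2 BX_795 and 25.7, 26.9 and 27.7 CPM in KO_2 H151, against a mean of 38.3 ± 0.844 CPM in R4KO_2 Vehicle. The inhibitor libraries lay below both the R4KO_2 and the Ctrl Vehicle libraries. BRIP1 had 30.7, 32.2 and 30.4 CPM in H151_iR4 and 39.6, 40.6 and 39.9 CPM in iR4, against 32.95, 28.8 and 29.9 CPM in Vehicle, and only the iR4 libraries stood apart. For BRIP1, edgeR gave 0.38 (SE 0.069, adjusted p = 5.18e-05) in R4KO_2, 0.24 (SE 0.07, adjusted p = 0.00525) in R4KO_1 and 0.39 (SE 0.055, adjusted p = 6.3e-07) in iR4. With inhibitor, BRIP1 changed by -0.53 (SE 0.067, adjusted p = 2.88e-07) with BX-795 in KO_2, -0.52 (SE 0.067, adjusted p = 4.89e-07) with H-151 in KO_2 and -0.36 (SE 0.055, adjusted p = 2.67e-06) with H-151 in iR4 cells. The BRIP1 rise in R4KO_1 was lost without R4KO_1 replicate 1 (edgeR adjusted p = 0.0586).

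The strand exchange genes held the largest change of the set beside members that moved the other way. Of 7 strand exchange genes, 1 was higher and 4 lower in R4KO_2 and likewise in R4KO_1, and 1 was higher and 3 lower in iR4. Among all genes, 34% were higher and 32.2% lower in R4KO_2, 33% and 31.4% in R4KO_1 and 37.1% and 34.8% in iR4. RAD51B (ENSG00000182185, chr14:67819779-68730218, plus strand), a subunit of a complex that helps strand exchange, had 1.803, 1.39 and 2.04 CPM in R4KO_2 Vehicle and 2.32, 2.42 and 2.16 CPM in R4KO_1 Vehicle, against 7.27, 5.98 and 6.899 CPM in Ctrl Vehicle. It had 7.62, 7.79 and 7.43 CPM in KO_2 BX_795 and 7.03, 7.14 and 6.75 CPM in KO_2 H151, against a mean of 1.74 ± 0.327 CPM in R4KO_2 Vehicle. It had 5.92, 7.68 and 7.54 CPM in H151_iR4 and 2.33, 2.65 and 1.74 CPM in iR4, against 6.47, 6.499 and 5.84 CPM in Vehicle. Levels were low throughout, yet the knockout and iR4 libraries all lay under 3 CPM and the libraries of every other group above 5 CPM. For RAD51B, edgeR gave log2 fold changes of -1.94 (SE 0.14, adjusted p = 6.02e-11) in R4KO_2, -1.54 (SE 0.13, adjusted p = 1.28e-09) in R4KO_1 and -1.49 (SE 0.15, adjusted p = 2.19e-09) in iR4. With inhibitor, RAD51B rose by 2.12 (SE 0.13, adjusted p = 2.61e-12) with BX-795 in KO_2, 1.99 (SE 0.13, adjusted p = 9.96e-12) with H-151 in KO_2 and 1.68 (SE 0.15, adjusted p = 2.23e-10) with H-151 in iR4 cells. Annotated antisense transcripts overlap RAD51B, as genes on the opposite strand overlap 20 of the 42 members and genes on the same strand 8, and with the strand setting of the counting unknown, reads from such pairs cannot be told apart. RAD51D (ENSG00000185379, chr17:35092208-35121522, minus strand), another subunit of that complex, went the other way, with 24.8, 28.8 and 28.6 CPM in R4KO_2 Vehicle and 25.5, 25.1 and 26.9 CPM in R4KO_1 Vehicle, against 20.6, 19 and 22.5 CPM in Ctrl Vehicle. It had 24.6, 25.9 and 26.5 CPM in KO_2 BX_795 and 21.8, 23.9 and 22.9 CPM in KO_2 H151, against a mean of 27.4 ± 2.28 CPM in R4KO_2 Vehicle. The H-151 libraries fell below the R4KO_2 range, while the BX-795 libraries overlapped it. RAD51D had 20.4, 18.3 and 19.1 CPM in H151_iR4 and 31.9, 30.3 and 29.9 CPM in iR4, against 20.4, 19.99 and 20.4 CPM in Vehicle, and the iR4 libraries lay well above the other 6. For RAD51D, edgeR gave 0.40 (SE 0.073, adjusted p = 4.54e-05) in R4KO_2, 0.32 (SE 0.073, adjusted p = 0.000655) in R4KO_1 and 0.60 (SE 0.059, adjusted p = 1.57e-09) in iR4. With inhibitor, RAD51D changed by -0.091 (SE 0.068, adjusted p = 0.228) with BX-795 in KO_2, -0.26 (SE 0.069, adjusted p = 0.0019) with H-151 in KO_2 and -0.68 (SE 0.06, adjusted p = 2.85e-10) with H-151 in iR4 cells. The readthrough gene RAD51L3-RFFL overlaps RAD51D on the same strand.

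The other strand exchange genes changed by less. RAD51C, a partner of RAD51B, fell by 0.26 in R4KO_2 and by 0.42 in R4KO_1 on the log2 scale, but was not called in iR4 (-0.10) or with any inhibitor. XRCC2, the RAD51D partner, fell by 0.21 and 0.25 and was likewise not called elsewhere. RAD54L, the translocase that opens the template duplex, fell by 0.21 in R4KO_2, 0.36 in R4KO_1 and 0.25 in iR4, and rose with inhibitor by 0.36, 0.25 and 0.26 (BX-795 and H-151 in KO_2, then H-151 in iR4 cells). XRCC3, the RAD51C partner, was called lower in iR4 (-0.21) and with both inhibitors in KO_2 (-0.19 and -0.16), and higher with H-151 in iR4 cells (0.25). RAD54B was called only with the inhibitors in KO_2, at -0.19 and -0.23. RAD54B, MRE11, NBN and ATRIP were the 4 members with no call in R4KO_2, R4KO_1 or iR4.

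Break sensing genes were led by RAD50, while its complex partners MRE11 and NBN were not called in the knockouts or iR4. Of 7, 2 were higher and 2 lower in R4KO_2, 3 higher and 1 lower in R4KO_1, and 1 higher and 3 lower in iR4. Among all genes, 34% were higher and 32.2% lower in R4KO_2, 33% and 31.4% in R4KO_1 and 37.1% and 34.8% in iR4. RAD50 (ENSG00000113522, chr5:132556019-132646344, plus strand), the coiled-coil ATPase that tethers broken ends, had 104, 101 and 108 CPM in R4KO_2 Vehicle and 112, 116 and 110.4 CPM in R4KO_1 Vehicle, against 162, 149 and 177 CPM in Ctrl Vehicle. It had 157, 161 and 147 CPM in KO_2 BX_795 and 158, 159 and 156 CPM in KO_2 H151, against a mean of 104 ± 3.88 CPM in R4KO_2 Vehicle. It had 175, 177 and 179 CPM in H151_iR4 and 107, 99.9 and 106 CPM in iR4, against 172, 171 and 166 CPM in Vehicle. The knockout and iR4 libraries formed a low set, at no more than 116 CPM, and every other library stood at 147 CPM or more. For RAD50, edgeR gave log2 fold changes of -0.64 (SE 0.052, adjusted p = 3.85e-10) in R4KO_2, -0.53 (SE 0.051, adjusted p = 8.3e-09) in R4KO_1 and -0.70 (SE 0.036, adjusted p = 5.77e-15) in iR4. With inhibitor, RAD50 rose by 0.57 (SE 0.051, adjusted p = 1.26e-09) with BX-795 in KO_2, 0.60 (SE 0.051, adjusted p = 6.29e-10) with H-151 in KO_2 and 0.76 (SE 0.036, adjusted p = 1.3e-15) with H-151 in iR4 cells. MRE11, the nuclease of the same complex, lay between -0.039 and 0.057 in the knockouts and iR4 with no call, and NBN, the adaptor subunit, between -0.0001 and 0.047. IL5 and TH2LCRR overlap RAD50 on the opposite strand. TP53BP1 (ENSG00000067369, chr15:43403061-43510728, minus strand), which protects ends from resection, differed in sign between the experiments. It had 111, 107 and 110.5 CPM in R4KO_2 Vehicle and 111, 109 and 109 CPM in R4KO_1 Vehicle, against 85, 87.01 and 94.9 CPM in Ctrl Vehicle, so that the knockout libraries lay above the control libraries. It had 97.2, 98.5 and 102 CPM in H151_iR4 and 86.8, 91.9 and 89.6 CPM in iR4, against 102, 101 and 101 CPM in Vehicle, so that the iR4 libraries lay below both other groups. It had 102, 111 and 99.8 CPM in KO_2 BX_795 and 100.2, 101 and 99.7 CPM in KO_2 H151, against a mean of 109.5 ± 2.31 CPM in R4KO_2 Vehicle. For TP53BP1, edgeR gave 0.30 (SE 0.046, adjusted p = 6.83e-06) in R4KO_2, 0.30 (SE 0.046, adjusted p = 6.72e-06) in R4KO_1 and -0.18 (SE 0.037, adjusted p = 0.000129) in iR4. With inhibitor, TP53BP1 changed by -0.07 (SE 0.045, adjusted p = 0.167) with BX-795 in KO_2, -0.13 (SE 0.045, adjusted p = 0.0151) with H-151 in KO_2 and 0.15 (SE 0.037, adjusted p = 0.00081) with H-151 in iR4 cells. The TP53BP1 fall with H-151 in KO_2 was lost without R4KO_2 replicate 1 or with no filter on low counts, at edgeR adjusted p-values of up to 0.0536. TUBGCP4 overlaps TP53BP1 on the opposite strand. MDC1, the scaffold that reads phosphorylated H2AX, rose by 0.21 in R4KO_2, 0.26 in R4KO_1 and 0.16 in iR4. ATM, the break kinase, fell by 0.16 in R4KO_2 and 0.23 in iR4 and rose by 0.35 with H-151 in iR4 cells, but fell by 0.14 with BX-795 in KO_2. CHEK2, the kinase ATM activates, rose by 0.13 in R4KO_1 and by 0.14 with H-151 in iR4 cells, and fell by 0.23 with BX-795 in KO_2.

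End resection and the ATR checkpoint showed smaller changes. RBBP8 (CtIP), which starts resection with MRE11, fell by 0.12 in R4KO_2 and 0.29 in R4KO_1 but rose by 0.11 in iR4. EXO1, a long-range resection nuclease, was called in the iR4 experiment alone, at 0.25 in iR4 and -0.17 with H-151 added. BLM, a helicase that acts with DNA2 and also dissolves recombination intermediates, rose by 0.28, 0.18 and 0.16 in R4KO_2, R4KO_1 and iR4 and fell by 0.21, 0.21 and 0.11 with inhibitor. Among 5 ATR checkpoint genes, ATR itself fell by 0.35 in R4KO_2, 0.42 in R4KO_1 and 0.44 in iR4; with H-151 it rose by 0.41 in iR4 cells but stood at -0.084 in KO_2 with no call. CHEK1, the effector kinase of ATR, fell by 0.15 in R4KO_2 and 0.30 in R4KO_1 and rose by 0.34 and 0.31 with BX-795 and H-151 in KO_2. TOPBP1 fell by 0.10 in R4KO_2 and by 0.077 in iR4. CLSPN (ENSG00000092853, chr1:35720218-35769967, minus strand), the claspin adaptor between ATR and CHEK1, had 80.1, 73.7 and 71.4 CPM in R4KO_2 Vehicle and 59.01, 55.1 and 50.2 CPM in R4KO_1 Vehicle, against 58.8, 60.1 and 60.5 CPM in Ctrl Vehicle. R4KO_2 lay above the control libraries, while R4KO_1 straddled their lower edge. It had 65.2, 62.7 and 59.2 CPM in KO_2 BX_795 and 62.6, 61.98 and 59.8 CPM in KO_2 H151, against a mean of 75.1 ± 4.51 CPM in R4KO_2 Vehicle. CLSPN in the iR4 experiment had 78.6, 70.7 and 76.1 CPM in H151_iR4 and 103, 105 and 107 CPM in iR4, against 79.9, 81.2 and 78.7 CPM in Vehicle. The iR4 libraries exceeded every other library of that experiment. For CLSPN, edgeR gave 0.33 (SE 0.056, adjusted p = 2.51e-05) in R4KO_2, -0.13 (SE 0.058, adjusted p = 0.0609) in R4KO_1 and 0.39 (SE 0.04, adjusted p = 2.86e-09) in iR4. With inhibitor, CLSPN changed by -0.27 (SE 0.054, adjusted p = 0.000141) with BX-795 in KO_2, -0.29 (SE 0.055, adjusted p = 6.44e-05) with H-151 in KO_2 and -0.49 (SE 0.041, adjusted p = 8.27e-11) with H-151 in iR4 cells. The CLSPN direction in KO_2 cells turned with the knockout chosen: relative to R4KO_1 Vehicle it was 0.19 with BX-795 (edgeR adjusted p = 0.0057) and 0.17 with H-151 (edgeR adjusted p = 0.0131). ATRIP was not called in iR4 (0.79 (SE 0.40, adjusted p = 0.0829) by edgeR), as its few counts leave a wide error.

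Of 8 core complex genes, 3 were higher and 2 lower in R4KO_2, 3 higher and 4 lower in R4KO_1, and 5 higher and 1 lower in iR4, and with the 3 inhibitor treatments 2 were higher and 5, 5 and 4 lower (BX-795 and H-151 in KO_2, then H-151 in iR4 cells). Of all genes, 34% were higher and 32.2% lower in R4KO_2, 33% and 31.4% in R4KO_1 and 37.1% and 34.8% in iR4. For the inhibitor treatments, in the order above, those shares were 36.4% and 37.1%, 35.7% and 37%, and 35.1% and 36.3%. Calls in both directions among so few core genes are thus a description only. FANCE (ENSG00000112039, chr6:35452356-35467103, plus strand), which links the core complex to FANCD2, had 31.9, 30.9 and 32.5 CPM in R4KO_2 Vehicle and 38.3, 40.1 and 33.9 CPM in R4KO_1 Vehicle, against 25.3, 27.5 and 27.2 CPM in Ctrl Vehicle. The knockout libraries lay above the control libraries, with R4KO_1 above R4KO_2. It had 24.6, 26.3 and 24.6 CPM in KO_2 BX_795 and 25.4, 25.8 and 26.7 CPM in KO_2 H151, against a mean of 31.8 ± 0.834 CPM in R4KO_2 Vehicle. FANCE in the iR4 experiment had 24.3, 27.9 and 25.7 CPM in H151_iR4 and 32.1, 30.2 and 30.7 CPM in iR4, against 25.1, 23.6 and 21.3 CPM in Vehicle. For FANCE, edgeR gave log2 fold changes of 0.25 (SE 0.064, adjusted p = 0.00145) in R4KO_2, 0.49 (SE 0.063, adjusted p = 5.77e-07) in R4KO_1 and 0.41 (SE 0.065, adjusted p = 3.77e-06) in iR4. With inhibitor, FANCE fell by 0.34 (SE 0.062, adjusted p = 4.12e-05) with BX-795 in KO_2, 0.29 (SE 0.062, adjusted p = 0.00022) with H-151 in KO_2 and 0.25 (SE 0.064, adjusted p = 0.00134) with H-151 in iR4 cells. FANCL (ENSG00000115392, chr2:58159243-58241372, minus strand), the ubiquitin ligase subunit, had 58.1, 52.5 and 54.8 CPM in R4KO_2 Vehicle and 50.6, 49.2 and 49.3 CPM in R4KO_1 Vehicle, against 42.2, 41.2 and 46.2 CPM in Ctrl Vehicle. It had 36.9, 37.5 and 38.5 CPM in KO_2 BX_795 and 36.7, 40 and 39.5 CPM in KO_2 H151, against a mean of 55.1 ± 2.85 CPM in R4KO_2 Vehicle. These inhibitor libraries lay below the Ctrl Vehicle libraries as well. FANCL had 32.9, 36.5 and 38.9 CPM in H151_iR4 and 43.9, 43.8 and 46.03 CPM in iR4, against 36.4, 37.3 and 37.9 CPM in Vehicle, with the iR4 libraries above the other 6. For FANCL, edgeR gave 0.35 (SE 0.054, adjusted p = 6.27e-06) in R4KO_2, 0.20 (SE 0.055, adjusted p = 0.0027) in R4KO_1 and 0.26 (SE 0.054, adjusted p = 0.000134) in iR4. With inhibitor, FANCL changed by -0.55 (SE 0.053, adjusted p = 4.21e-09) with BX-795 in KO_2, -0.51 (SE 0.053, adjusted p = 1.56e-08) with H-151 in KO_2 and -0.30 (SE 0.055, adjusted p = 3.24e-05) with H-151 in iR4 cells. FANCG (ENSG00000221829, chr9:35073835-35080016, minus strand), a core scaffold, had 57.1, 53.3 and 50.4 CPM in R4KO_2 Vehicle and 53.6, 53.4 and 52.4 CPM in R4KO_1 Vehicle, against 47.6, 49.5 and 48.6 CPM in Ctrl Vehicle, a small rise without overlap. In the iR4 experiment it had 47.6, 49.05 and 50.3 CPM in H151_iR4 and 60.8, 63.6 and 61.1 CPM in iR4, against 45.95, 43.6 and 46.6 CPM in Vehicle. It had 56.5, 50.7 and 55.6 CPM in KO_2 BX_795 and 53.3, 54.9 and 54.6 CPM in KO_2 H151, against a mean of 53.6 ± 3.35 CPM in R4KO_2 Vehicle. The inhibitor libraries overlapped R4KO_2 in KO_2 cells, whereas H-151 libraries lay below iR4 in the iR4 experiment. For FANCG, edgeR gave 0.14 (SE 0.052, adjusted p = 0.0213) in R4KO_2, 0.13 (SE 0.053, adjusted p = 0.0367) in R4KO_1 and 0.45 (SE 0.045, adjusted p = 2.21e-09) in iR4. With inhibitor, FANCG changed by 0.019 (SE 0.05, adjusted p = 0.737) with BX-795 in KO_2, 0.017 (SE 0.05, adjusted p = 0.768) with H-151 in KO_2 and -0.33 (SE 0.045, adjusted p = 3.37e-07) with H-151 in iR4 cells. The FANCG rises in the knockouts did not hold throughout: the one in R4KO_1 was lost under 7 of 13 alternatives, DESeq2 and the omission of R4KO_1 replicate 1 or 2 or of Ctrl Vehicle replicate 1 or 3 among them (adjusted p up to 0.112). The one in R4KO_2 was lost without Ctrl Vehicle replicate 1, without R4KO_2 replicate 1 and with no filter on low counts (edgeR adjusted p up to 0.148).

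FANCF and FANCB were the core genes that fell furthest in the knockouts. FANCF (ENSG00000183161, chr11:22622890-22625841, minus strand), an adaptor of the core complex whose gene lies opposite GAS2, had 14.4, 12.2 and 15.7 CPM in R4KO_2 Vehicle and 15.6, 17.2 and 15.98 CPM in R4KO_1 Vehicle, against 20.1, 22.4 and 18.5 CPM in Ctrl Vehicle. It had 20.4, 18.4 and 20.9 CPM in KO_2 BX_795 and 20.6, 20.5 and 21.4 CPM in KO_2 H151, against a mean of 14.1 ± 1.79 CPM in R4KO_2 Vehicle. It had 21.7, 23.5 and 20.2 CPM in H151_iR4 and 15, 16.1 and 14.2 CPM in iR4, against 21.99, 21.9 and 22.98 CPM in Vehicle, so that the iR4 libraries, like the knockout libraries, lay below the groups they were set against. For FANCF, edgeR gave -0.53 (SE 0.089, adjusted p = 2.05e-05) in R4KO_2, -0.32 (SE 0.087, adjusted p = 0.00286) in R4KO_1 and -0.57 (SE 0.07, adjusted p = 9.92e-08) in iR4. With inhibitor, FANCF changed by 0.50 (SE 0.086, adjusted p = 2.04e-05) with BX-795 in KO_2, 0.56 (SE 0.085, adjusted p = 4.18e-06) with H-151 in KO_2 and 0.54 (SE 0.071, adjusted p = 3.21e-07) with H-151 in iR4 cells. FANCB (ENSG00000181544, chrX:14835961-14873069, minus strand), the partner of FANCL on the X chromosome, had 14.5, 13.5 and 12.7 CPM in R4KO_2 Vehicle and 12.3, 12.4 and 13.2 CPM in R4KO_1 Vehicle, against 18.5, 16.1 and 18.9 CPM in Ctrl Vehicle. It had 16.2, 16.4 and 14.98 CPM in KO_2 BX_795 and 16.5, 17.4 and 16.02 CPM in KO_2 H151, against a mean of 13.6 ± 0.922 CPM in R4KO_2 Vehicle. FANCB in the iR4 experiment had 14.7, 16.7 and 17.1 CPM in H151_iR4 and 14.3, 14.1 and 17.6 CPM in iR4, against 16.6, 13.99 and 17.8 CPM in Vehicle. The knockout libraries lay below the control libraries, but the 3 groups of the iR4 experiment overlapped. For FANCB, edgeR gave -0.39 (SE 0.079, adjusted p = 0.000176) in R4KO_2, -0.50 (SE 0.081, adjusted p = 1.3e-05) in R4KO_1 and -0.065 (SE 0.092, adjusted p = 0.537) in iR4. With inhibitor, FANCB changed by 0.22 (SE 0.077, adjusted p = 0.0145) with BX-795 in KO_2, 0.29 (SE 0.077, adjusted p = 0.00184) with H-151 in KO_2 and 0.075 (SE 0.093, adjusted p = 0.48) with H-151 in iR4 cells. The FANCB rise with BX-795 was lost without R4KO_2 replicate 3 (edgeR adjusted p = 0.08). FANCA fell by 0.19 in R4KO_1 and rose by 0.18 in iR4, FANCM, the fork translocase, fell by 0.24 in R4KO_1, and FANCC rose by 0.12 in iR4. FANCM was lower than in R4KO_2 Vehicle with BX-795 (-0.27) and H-151 (-0.37) in KO_2, where R4KO_2 itself had no call, but rose by 0.17 with H-151 in iR4 cells. Relative to R4KO_1 Vehicle, FANCM stood at -0.08 with BX-795 (edgeR adjusted p = 0.254) and -0.17 with H-151 (edgeR adjusted p = 0.0169). FANCD2 (ENSG00000144554, chr3:10026414-10101930, plus strand), the ubiquitinated clamp of the pathway, had 70.8, 73.3 and 74.5 CPM in R4KO_2 Vehicle and 81.02, 82.3 and 71.1 CPM in R4KO_1 Vehicle, against 56.6, 61.4 and 65.3 CPM in Ctrl Vehicle. It had 64.7, 61.4 and 62.1 CPM in KO_2 BX_795 and 61.7, 60.3 and 60.1 CPM in KO_2 H151, against a mean of 72.9 ± 1.85 CPM in R4KO_2 Vehicle. In the iR4 experiment it had 57.8, 56.5 and 57.6 CPM in H151_iR4 and 70.98, 66.2 and 67.7 CPM in iR4, against 57.8, 57.1 and 56.9 CPM in Vehicle. The knockout and iR4 libraries lay above the groups they were set against, and every inhibitor library lay below the R4KO_2 or iR4 libraries it was set against. For FANCD2, edgeR gave 0.25 (SE 0.056, adjusted p = 0.000417) in R4KO_2, 0.36 (SE 0.056, adjusted p = 9.08e-06) in R4KO_1 and 0.26 (SE 0.041, adjusted p = 4.96e-06) in iR4. With inhibitor, FANCD2 changed by -0.22 (SE 0.054, adjusted p = 0.00121) with BX-795 in KO_2, -0.26 (SE 0.055, adjusted p = 0.00018) with H-151 in KO_2 and -0.25 (SE 0.042, adjusted p = 6.34e-06) with H-151 in iR4 cells. FANCI, its clamp partner, rose by 0.18 in R4KO_2 and 0.23 in R4KO_1 only, with -0.0074 in iR4. FANCD2, CHEK2 and XRCC6 have near-identical pseudogene copies, so reads could be split between them.

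End joining genes and PARP1 were mostly lower in the knockouts and in iR4. Of the 5, all were lower in R4KO_2, 4 in R4KO_1 and 4 in iR4, where 32.2%, 31.4% and 34.8% of all genes were lower. With BX-795 in KO_2, H-151 in KO_2 and H-151 in iR4 cells, 3, 3 and 4 were higher, where 36.4%, 35.7% and 35.1% of all genes were higher. The rest were not called. XRCC5 (ENSG00000079246, chr2:216107464-216206303, plus strand), the larger Ku subunit (Ku80), had 387, 368 and 371 CPM in R4KO_2 Vehicle and 418, 411 and 404 CPM in R4KO_1 Vehicle, against 576, 555 and 580.0 CPM in Ctrl Vehicle. It had 512, 504 and 501 CPM in KO_2 BX_795 and 513, 523 and 512 CPM in KO_2 H151, against a mean of 375 ± 10.2 CPM in R4KO_2 Vehicle. These inhibitor libraries still lay below the Ctrl Vehicle libraries. XRCC5 had 536, 524 and 514 CPM in H151_iR4 and 348, 355 and 356 CPM in iR4, against 566, 575 and 571 CPM in Vehicle, and the H151_iR4 libraries too remained under the Vehicle libraries. For XRCC5, edgeR gave log2 fold changes of -0.60 (SE 0.033, adjusted p = 5.73e-13) in R4KO_2, -0.47 (SE 0.032, adjusted p = 3.64e-11) in R4KO_1 and -0.69 (SE 0.031, adjusted p = 4.07e-16) in iR4. With inhibitor, XRCC5 rose by 0.43 (SE 0.032, adjusted p = 7.23e-11) with BX-795 in KO_2, 0.46 (SE 0.032, adjusted p = 2.36e-11) with H-151 in KO_2 and 0.57 (SE 0.031, adjusted p = 1.83e-14) with H-151 in iR4 cells. XRCC6 (ENSG00000196419, chr22:41621119-41664048, plus strand), the smaller subunit (Ku70), had 602, 586 and 578 CPM in R4KO_2 Vehicle and 627, 619.6 and 609 CPM in R4KO_1 Vehicle, against 792, 790.4 and 808 CPM in Ctrl Vehicle. It had 832, 812 and 836 CPM in KO_2 BX_795 and 790.5, 818 and 805 CPM in KO_2 H151, against a mean of 588 ± 11.9 CPM in R4KO_2 Vehicle. These inhibitor libraries lay within or above the Ctrl Vehicle range. XRCC6 had 810.4, 795 and 799 CPM in H151_iR4 and 635, 633 and 633 CPM in iR4, against 874, 865 and 863 CPM in Vehicle. The iR4 libraries were the lowest, and H151_iR4 lay between them and Vehicle. For XRCC6, edgeR gave -0.44 (SE 0.03, adjusted p = 3.63e-11) in R4KO_2, -0.36 (SE 0.03, adjusted p = 8e-10) in R4KO_1 and -0.45 (SE 0.029, adjusted p = 5.16e-13) in iR4. With inhibitor, XRCC6 changed by 0.49 (SE 0.03, adjusted p = 2.72e-12) with BX-795 in KO_2, 0.45 (SE 0.03, adjusted p = 1.13e-11) with H-151 in KO_2 and 0.34 (SE 0.029, adjusted p = 1.45e-10) with H-151 in iR4 cells. PRKDC (ENSG00000253729), the catalytic subunit of the DNA-dependent protein kinase, had 569, 532 and 573 CPM in R4KO_2 Vehicle and 547, 534 and 504 CPM in R4KO_1 Vehicle, against 749, 690.3 and 726 CPM in Ctrl Vehicle. It had 563, 568 and 533 CPM in KO_2 BX_795 and 568, 586 and 580.0 CPM in KO_2 H151, against a mean of 558 ± 22.97 CPM in R4KO_2 Vehicle, so that the inhibitor libraries overlapped R4KO_2 and all lay below Ctrl Vehicle. It had 689.8, 657 and 677 CPM in H151_iR4 and 449, 464 and 455 CPM in iR4, against 698, 699 and 693 CPM in Vehicle, so that in iR4 cells the H-151 libraries stood far above iR4. For PRKDC, edgeR gave -0.37 (SE 0.04, adjusted p = 4.66e-08) in R4KO_2, -0.45 (SE 0.041, adjusted p = 2.7e-09) in R4KO_1 and -0.61 (SE 0.031, adjusted p = 4.51e-15) in iR4. With inhibitor, PRKDC changed by -0.0092 (SE 0.04, adjusted p = 0.843) with BX-795 in KO_2, 0.051 (SE 0.04, adjusted p = 0.266) with H-151 in KO_2 and 0.57 (SE 0.031, adjusted p = 2.34e-14) with H-151 in iR4 cells. LIG4 fell by 0.30 in R4KO_2 and 0.41 in R4KO_1. PARP1, the sensor of strand breaks that makes poly(ADP-ribose), fell by 0.19 in R4KO_2 and 0.25 in iR4 and rose by 0.40 with BX-795 and 0.33 with H-151 in KO_2 and by 0.27 with H-151 in iR4 cells.

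**Figure D2:**
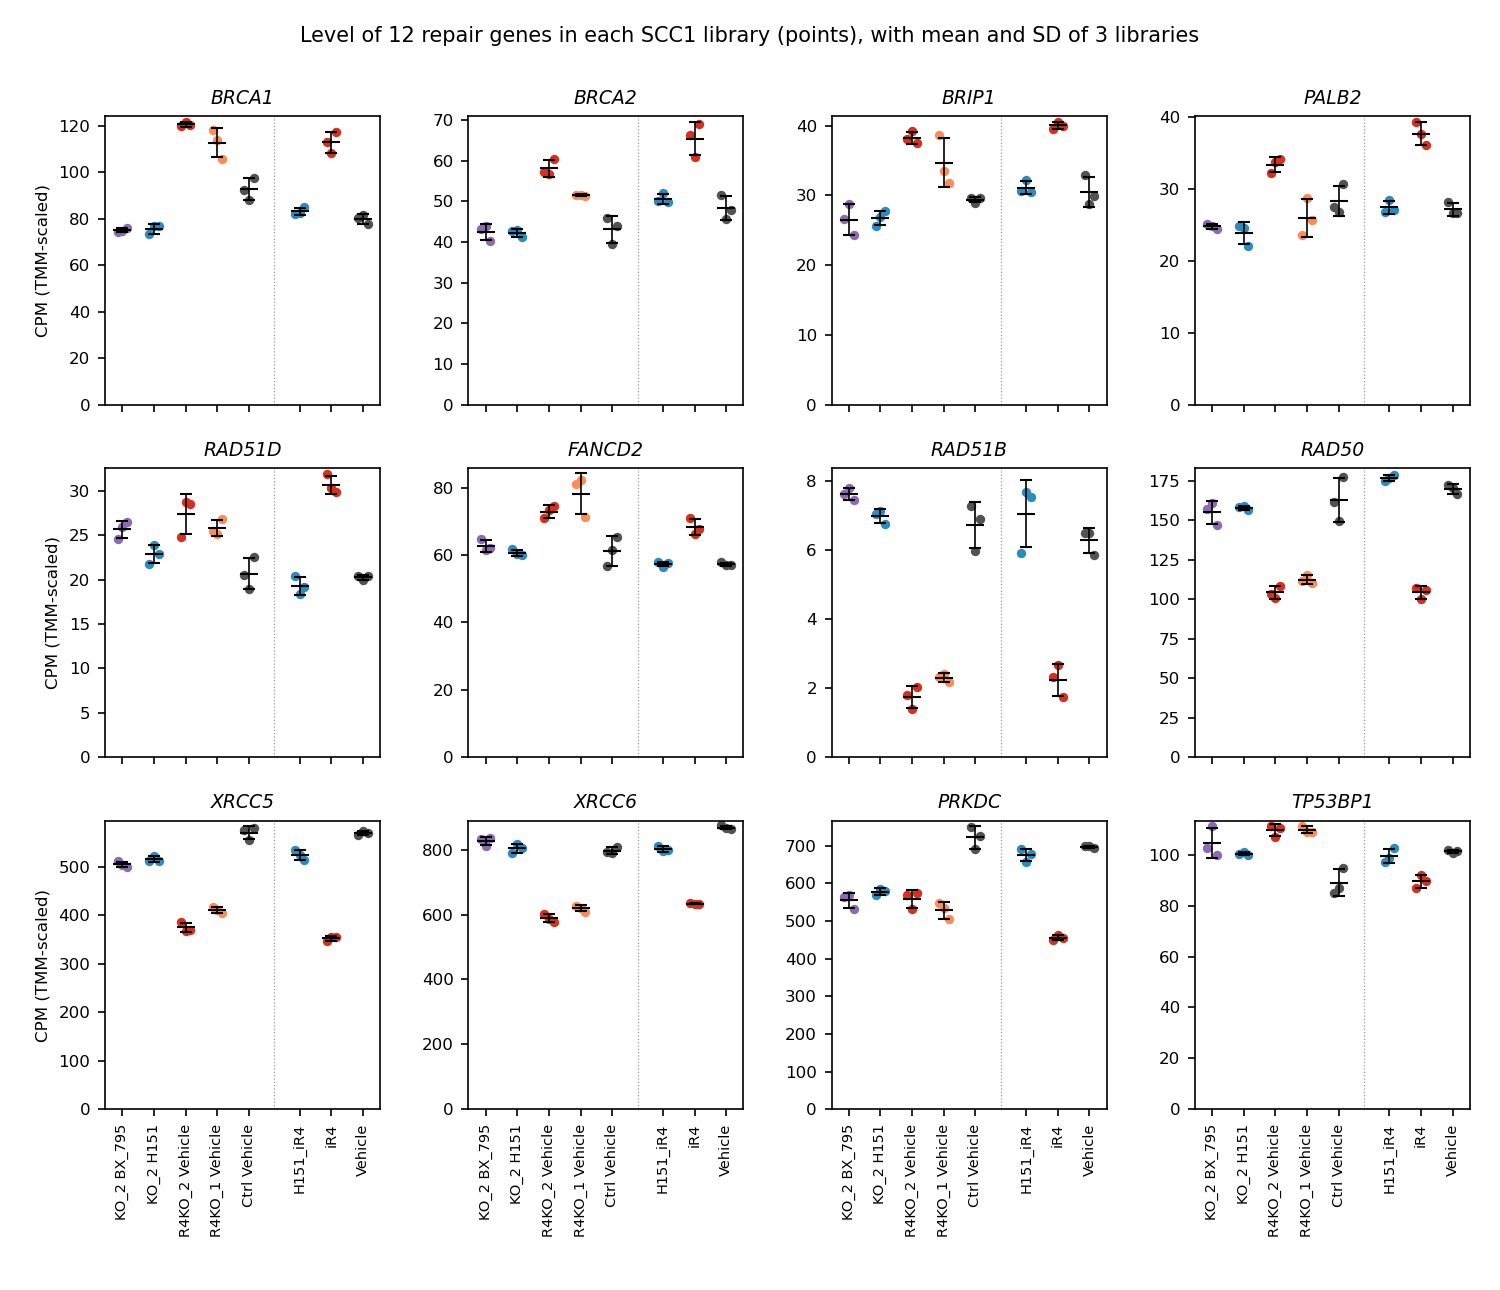
TMM-scaled CPM of 12 repair genes, 1 panel each, in every SCC1 library (points; black bars are the mean and SD of 3 libraries), with the iR4 experiment right of the dotted line and every axis starting at 0. RAD51B, RAD50, XRCC5 and XRCC6 dip in R4KO_2, R4KO_1 and iR4, BRCA1 and BRCA2 peak there, PRKDC stays low with inhibitor in KO_2 (533 to 586 CPM) but not in H151_iR4 (657 to 689.8 CPM), and TP53BP1 is high in the knockouts and low in iR4.

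Because iR4 and R4KO_1 were measured in separate experiments with separate controls, their members can be counted side by side. Of the 30 members called in iR4 and the 29 called in R4KO_1, 21 were called in both, which is 70% of the iR4 calls and 72.4% of the R4KO_1 calls. Of these, 18 had the same direction, while FANCA, RBBP8 and TP53BP1 had opposite directions. Over all 13839 genes tested in both, 73.3% of the iR4 calls and 80.9% of the R4KO_1 calls were shared, 92.6% of them in the same direction, so the members' overlap was no larger than that of all genes. For R4KO_2, with 32 called, 26 were shared (86.7% of the iR4 calls and 81.2% of the R4KO_2 calls), 24 in the same direction, with RBBP8 and TP53BP1 opposite. Over all genes those shares were 78.6% and 84.5%, with 97.5% in the same direction. Across 41 genes the fold changes of iR4 and R4KO_1 correlated at Pearson r = 0.81, a description only, since genes are not independent replicates and RAD51B lies far from the rest. Over R4KO_1 against Ctrl Vehicle, iR4 against Vehicle and H-151 in KO_2 against R4KO_2 Vehicle, which share no library with each other, 10 members were higher in the first pair, and 8 of the 10 (BRCA1, BRCA2, BRIP1, RAD51D, BLM, FANCE, FANCL and FANCD2) were lower with H-151. Another 8 were lower in the first pair, and 6 of the 8 (RAD51B, RAD54L, RAD50, FANCF, XRCC5 and XRCC6) were higher with H-151, leaving ATR and PRKDC uncalled there. Over all genes, 75.2% of the 3351 genes higher in the first pair were lower with H-151, and 76.5% of the 3424 lower ones were higher. H-151 called 23 members in both KO_2 and iR4 cells (79.3% of the KO_2 calls and 76.7% of the iR4 calls), 20 in the same direction, with FANCM, TP53BP1 and XRCC3 opposite. Over all genes those shares were 76.3% and 78.2%, with 86.4% in the same direction, and the members' counts are near that background.

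**Figure D3:**
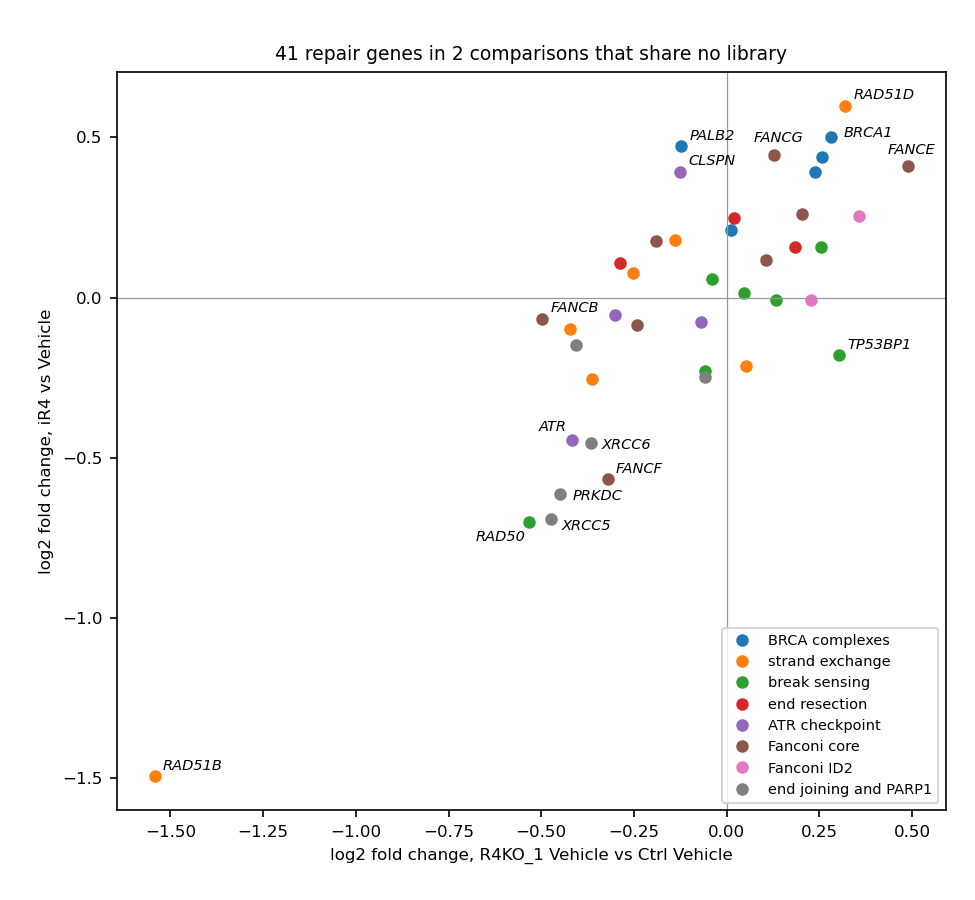
log2 fold change of 41 repair genes in R4KO_1 Vehicle against Ctrl Vehicle (x axis) and in iR4 against Vehicle (y axis), coloured by role; the 2 comparisons share no library. RAD51B lies alone at -1.54 and -1.49, the end joining genes XRCC5, XRCC6 and PRKDC lie with RAD50 at the lower left, and TP53BP1 lies at the lower right, at 0.30 and -0.18.

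Whether effects differed was tested directly, in 1 edgeR fit over all 24 libraries. The iR4 effect minus the mean of both knockout effects was positive for 12 members and negative for 6 at an adjusted p under 0.05, or 42.9% of 42, where 27.8% of all 14585 genes tested differed (14.7% positive and 13.1% negative). PALB2, FANCB, FANCG, CLSPN, RAD51D and BRCA1 had the more positive effect in iR4: the difference was 0.42 (SE 0.083, adjusted p = 0.000329) for PALB2, 0.38 (SE 0.12, adjusted p = 0.0171) for FANCB and 0.31 (SE 0.064, adjusted p = 0.000418) for FANCG. For CLSPN it was 0.29 (SE 0.067, adjusted p = 0.00122), for RAD51D 0.24 (SE 0.087, adjusted p = 0.0399) and for BRCA1 0.17 (SE 0.056, adjusted p = 0.0213), all by edgeR. The RAD51D difference was lost under 13 of 21 alternatives (adjusted p up to 0.165), 10 of which left out 1 library. The BRCA1 and FANCB differences were each lost without Ctrl Vehicle replicate 3 or iR4 replicate 3, and also without Vehicle replicate 3 for BRCA1 (edgeR adjusted p up to 0.0879) and replicate 2 for FANCB (edgeR adjusted p up to 0.103). TP53BP1 had the largest difference of the set in the other direction, -0.48 (SE 0.056, adjusted p = 1.38e-07) by edgeR, followed among the named genes by PRKDC at -0.20 (SE 0.048, adjusted p = 0.0019) and XRCC5 at -0.15 (SE 0.039, adjusted p = 0.00389). RBBP8 (0.31), XRCC2 (0.31), RAD51C (0.24), FANCA (0.23), EXO1 (0.23) and CHEK1 (0.17) were the other positive ones, and XRCC3 (-0.23), FANCI (-0.21) and PARP1 (-0.12) the other negative ones. The H-151 effect in iR4 cells minus that in KO_2 cells was positive for 12 members and negative for 5, or 40.5% of 42, where 50.7% of all genes differed (23.7% positive and 27% negative); whether these shares differ was not tested. PRKDC showed 0.51 (SE 0.051, adjusted p = 1.65e-09), RAD51D -0.42 (SE 0.091, adjusted p = 0.000254) and BRCA1 0.22 (SE 0.06, adjusted p = 0.0028) by edgeR. FANCM (0.53), ATR (0.49), ATM (0.42) and XRCC3 (0.39) were further positive differences, and FANCG (-0.36) and CHEK1 (-0.27) further negative ones.

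The knockouts differed from each other in part of the set. In R4KO_2 against R4KO_1, 10 members were higher and 3 lower, where 15.1% of all genes were higher and 16.6% lower (31.6% in either direction, against 31.7% of the members). CLSPN had the largest call, 0.45 (SE 0.056, adjusted p = 2.45e-06) by edgeR, followed by PALB2 and FANCA (0.28), and FANCE (-0.24), PARP1 (-0.13) and XRCC5 (-0.13) were the 3 lower ones. The count of higher members rested on single libraries: without R4KO_1 replicate 2 it was 5, and without R4KO_1 replicate 3, R4KO_2 replicate 1 or R4KO_2 replicate 3 it was 6. Few of these genes were called between BX-795 and H-151 in KO_2 cells: RBBP8 was higher with BX-795 (0.19 (SE 0.046, adjusted p = 0.0119) by edgeR) and MDC1 lower (-0.21 (SE 0.044, adjusted p = 0.00377)), which is 4.88% of 41 members, where 9.67% of all genes were called (5.67% higher and 3.99% lower). The RBBP8 call was lost without KO_2 BX_795 replicate 2 or KO_2 H151 replicate 2. The other 39 members lay between -0.11 and 0.17 on the log2 scale without a call, which does not show that the inhibitors act alike. RAD51B, for example, had 7.62, 7.79 and 7.43 CPM in KO_2 BX_795, against 7.03, 7.14 and 6.75 CPM in KO_2 H151.

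Inhibitor-treated cells were also set against the untreated controls, to see where the members ended. In H151_iR4 against Vehicle, 0 of 42 members were higher and 2 lower by edgeR, where 8.71% of all genes were higher and 9.58% lower (18.3% in either direction, 30.6% at an unadjusted p under 0.05). The lower pair were XRCC5 (-0.12 (SE 0.03, adjusted p = 0.00637)) and XRCC6 (-0.11 (SE 0.029, adjusted p = 0.00653)), both by edgeR, and 6 members were higher and 3 lower at an unadjusted p under 0.05, while DESeq2 also called 0 higher and 2 lower. In KO_2 BX_795 against Ctrl Vehicle, 7 members were higher and 15 lower, where 27.7% of all genes were higher and 28% lower (55.7% in either direction, against 53.7% of the members). In KO_2 H151 against Ctrl Vehicle, 6 were higher and 17 lower, where 26% of all genes were higher and 26.9% lower (53%, against 56.1% of the members). BRCA1 ended below Ctrl Vehicle, at -0.31 (SE 0.046, adjusted p = 7.82e-06) with BX-795 and -0.29 (SE 0.046, adjusted p = 1.64e-05) with H-151 by edgeR, and BARD1 and PALB2 were lower too, although the BARD1 call with H-151 was lost without Ctrl Vehicle replicate 1 or 3 or KO_2 H151 replicate 1 or 3, and the PALB2 call with BX-795 without Ctrl Vehicle replicate 3 or KO_2 BX_795 replicate 3. PRKDC remained lower than in Ctrl Vehicle, at -0.38 with BX-795 and -0.32 with H-151, as did ATR, at -0.38 and -0.44. RAD50 and FANCF were not called, at -0.07 and -0.044 for RAD50 and -0.03 and 0.034 for FANCF. Set against R4KO_1 Vehicle instead of R4KO_2 Vehicle, 13 members were higher and 14 lower with BX-795, and 13 higher and 18 lower with H-151, where 69% and 68.3% of all genes were called. BRCA1 (-0.59 and -0.57), RAD51B (1.72 and 1.60), RAD50 (0.46 and 0.49), XRCC5 (0.30 and 0.33) and XRCC6 (0.42 and 0.38) were among the 23 members with BX-795 and 25 with H-151 that were called in the same direction against either knockout. Both comparisons use the same inhibitor libraries, and this agreement was not counted over all genes, so it is a description only. CLSPN was called in opposite directions against R4KO_2 and R4KO_1 with each inhibitor. PALB2, RAD54B, FANCA and FANCM were called against R4KO_2 alone with BX-795, and PALB2, RAD54B and FANCA with H-151. RAD51C, FANCI and LIG4 were called against R4KO_1 alone with BX-795, and RAD51C, ATM, CHEK2, MDC1 and PRKDC with H-151.

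Genes of neighbouring pathways were counted over whole lists, from which up to 2 genes each are named for the size of their change, and the list summaries by library show how the repair genes sat beside the cell cycle genes. Of 30 mitosis genes, 29 were lower in R4KO_2, 29 in R4KO_1 and 28 in iR4, with the rest not called. With BX-795 in KO_2, 28 were higher and 1 lower. With H-151, 29 were higher in KO_2 and 27 in iR4 cells. Among all genes, 34% were higher and 32.2% lower in R4KO_2, 33% and 31.4% in R4KO_1 and 37.1% and 34.8% in iR4. With inhibitor the shares were 36.4% and 37.1%, 35.7% and 37%, and 35.1% and 36.3% (BX-795 and H-151 in KO_2, then H-151 in iR4 cells). PLK1, the mitotic kinase, had log2 fold changes of -1.58, -1.54 and -1.37 in R4KO_2, R4KO_1 and iR4, and 1.42, 1.61 and 1.29 with inhibitor; HMMR, a spindle assembly factor, had -1.32, -1.04 and -1.36, and 1.43, 1.44 and 1.27. On a mean log2(CPM + 1) scale relative to the untreated control mean, mitosis genes ranged from -0.733 to -0.585 over the 6 knockout libraries and from -0.674 to -0.634 over the iR4 libraries. The 42 repair genes ranged from -0.129 to -0.037 and from -0.022 to 0.003 on the same scale, and the BRCA complexes from 0.062 to 0.332 and from 0.356 to 0.417. End joining genes with PARP1 ranged from -0.407 to -0.323 over the knockout libraries and from -0.438 to -0.420 over the iR4 libraries. Of 32 DNA replication and G1/S genes, 10 were higher and 16 lower in R4KO_2, 6 and 19 in R4KO_1 and 10 and 15 in iR4, and with inhibitor 12 were higher and 13 lower, 9 and 13, and 13 and 10 (BX-795 and H-151 in KO_2, then H-151 in iR4 cells). UHRF1, a replication-coupled methylation reader, had -0.47, -0.97 and -0.36, and E2F1, a driver of S phase genes, 0.14, 0.34 and 0.76 in R4KO_2, R4KO_1 and iR4. The share of cells in each cycle phase was not measured, and its part in the repair gene results was not tested.

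**Figure D4:**
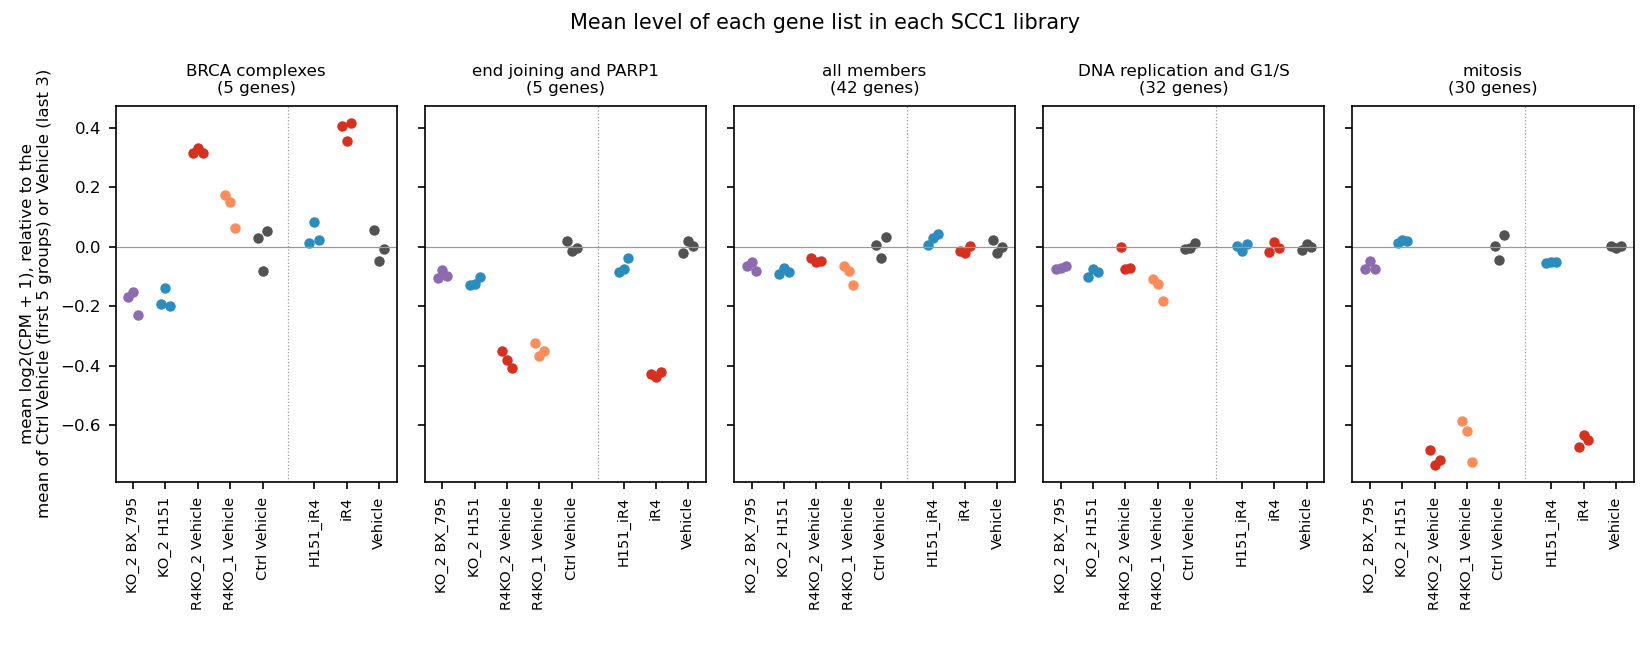
Mean log2(CPM + 1) of 5 gene lists in each SCC1 library (points), relative to the mean of Ctrl Vehicle for the 5 groups left of the dotted line and of Vehicle for the 3 groups right of it. The 5 BRCA complex genes lie above 0 in R4KO_2, R4KO_1 and iR4 while the end joining and mitosis lists lie below 0 there, and the mean of all 42 repair genes stays between -0.129 and 0.044.

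Further genes of the same pathways were as mixed as the members. For scale, 34% of all genes were higher and 32.2% lower in R4KO_2, 33% and 31.4% in R4KO_1 and 37.1% and 34.8% in iR4. With inhibitor the shares were 36.4% and 37.1%, 35.7% and 37%, and 35.1% and 36.3% (BX-795 and H-151 in KO_2, then H-151 in iR4 cells). Of 31 other homologous recombination genes, 13 were higher and 10 lower in R4KO_2, 7 and 12 in R4KO_1 and 13 and 10 in iR4; with inhibitor 8 were higher and 16 lower, 8 and 14, and 12 and 12. RMI2, a subunit of the BLM dissolvasome, had the same pattern as BLM with larger changes: 0.83 (SE 0.06, adjusted p = 5.54e-11) in R4KO_2, 0.64 (SE 0.06, adjusted p = 5.67e-09) in R4KO_1 and 1.07 (SE 0.062, adjusted p = 8.53e-14) in iR4 by edgeR, and -1.11, -1.07 and -1.17 with inhibitor. BABAM2, a scaffold of the BRCA1-A complex, went the other way, with -0.64, -0.31 and -0.71, and 0.97, 0.70 and 0.62 with inhibitor. Of 15 other Fanconi genes, 5 were higher and 4 lower in R4KO_2 and likewise in R4KO_1, and 7 higher and 5 lower in iR4; with inhibitor 6 were higher and 8 lower, 6 and 7, and 5 and 5. FAAP100, the partner of FANCB and FANCL, had -0.18, -0.037 (not called) and -0.61, and REV3L, the catalytic subunit of polymerase zeta, -0.0094 (not called), -0.20 and -0.39. Of 17 other checkpoint and break signalling genes, 7 were higher and 6 lower in R4KO_2, 8 and 5 in R4KO_1 and 8 and 5 in iR4; with inhibitor 3 were higher and 6 lower, 3 and 5, and 5 and 6. H2AX, the histone phosphorylated at breaks, fell by 0.64, 0.66 and 0.36 and rose by 0.53, 0.59 and 0.34 with inhibitor, while RAD9A, a subunit of the checkpoint clamp, rose by 0.28, 0.24 and 0.62. Of 11 other end joining genes tested, 3 were higher and 2 lower in R4KO_2 and likewise in R4KO_1, and 5 higher and 2 lower in iR4; with inhibitor 3 were higher and 4 lower, 3 and 5, and 2 and 5. POLM, a gap-filling polymerase of end joining, rose by 0.37 in R4KO_2 and 0.58 in R4KO_1, and APLF, a scaffold for Ku, rose by 0.65 in iR4. Thus the Ku genes and PRKDC fell in R4KO_2, R4KO_1 and iR4. No more than 2 of the 11 further end joining genes did so in any of these 3 comparisons. The share of all genes that were lower was 32.2%, 31.4% and 34.8%, and the difference between the lists was not tested.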

How the data were processed

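Per the labels' protocols, TRIzol-extracted RNA was cleared of DNA, selected on oligo(dT) beads and copied with random hexamers for Illumina sequencing. The labels call the molecule genomic DNA, but the counts were taken as RNA. Per the submitters' processing notes, reads were handled with Trim Galore 0.6.4, FastQC 0.11.9, featureCounts 2.0.1, HISAT2 2.2.1 and DESeq2 1.42.0 (order and roles not stated), on human build hg38. The gene annotation and the strandedness of counting were not stated. The authors deposited raw counts for each Ensembl gene ID, in a file per library and not normalized; an ID listed under several symbols was used once.

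Genes were tested with edgeR 4.0.16 (R 4.3.3) by quasi-likelihood F tests on TMM-scaled libraries, after filterByExpr at a minimum count of 10, and p-values were adjusted by Benjamini-Hochberg over all genes tested, with calls under 0.05. Each experiment had its own fit, of 15 and 9 libraries, and the 2 differences of effects used all 24. Depth was 16.04 to 27.94 M counts per library. Replicates of a group differed by more than counting noise (chi-square per degree of freedom 1.66 to 10.43), so none was merged. In simulated data 100 genes were changed 1.5-fold and 100 others 2-fold. For R4KO_1 against Ctrl Vehicle, 72% and 87% of them were found among 14109 genes, with 6 false calls. For iR4 against Vehicle 82% and 93% were found among 13838, with 7 false calls. Far fewer genes changed there than were called in the data, so these shares do not give the power of the real comparisons.

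The 42 members, their roles and the neighbouring gene lists were chosen with earlier results of these data known, so their counts are descriptions. Values in every library are given for REXO4 and for up to 4 rises and 4 falls per main comparison, the largest among called members whose groups do not overlap; up to 2 genes per neighbouring list are named by the size of their change in R4KO_1 or iR4, and some genes are not reported here. Replicate numbers were not used to pair the samples, as same-number correlations of deviations ran from -0.128 to 0.283. The highest, 0.283, was for replicate 1 of R4KO_2 and R4KO_1, so a shared deviation there is possible. Alternatives tried were DESeq2, RLE or upper-quartile scaling, other filters, a replicate block, fits on the compared groups alone and leaving out each library (45 fits). Promoters are from RefSeq, GRCh38.p14.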

Additional observations from a re-analysis of the deposited data

Results flagged for a closer look

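The items here are genes named by the rule whose effect differed between the knockout and iR4 experiments in the edgeR fit over all 24 libraries; each value is a difference of log2 fold changes, and its cause was not tested. For the iR4 effect minus the mean knockout effect, 8 of 15 such genes differed at an adjusted p under 0.05. Over all genes tested, 27.8% differed. The named genes were picked for large changes in comparisons that enter these differences, so the counts here are descriptions only. The effect was higher in iR4 for PALB2 by 0.42 (edgeR adjusted p = 0.000329), FANCB by 0.38 (0.0171), FANCG by 0.31 (0.000418), RAD51D by 0.24 (0.0399) and BRCA1 by 0.17 (0.0213). It was lower in iR4 for TP53BP1, with a difference of -0.48 (edgeR adjusted p = 1.38e-07), PRKDC with -0.2 (0.0019) and XRCC5 with -0.15 (0.00389). Of these, RAD51D was lost under 13 of 21 alternatives: 10 left out 1 library, and the others were RLE scaling, no filter on low counts and DESeq2. BRCA1 and FANCB were lost under 3 each, each time with 1 library left out. TP53BP1 was the only one of the 8 whose groups moved in opposite directions with a call in each comparison.

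For the H-151 effect in iR4 cells minus that in KO_2 cells, 7 of 11 such genes differed, where 50.7% of all genes did. PRKDC had a difference of 0.51 (edgeR adjusted p = 1.65e-09): it rose in all 3 H151_iR4 libraries relative to all 3 iR4 libraries, while the KO_2 H151 libraries overlapped R4KO_2 Vehicle. RAD51D had -0.42 (0.000254), BRCA1 0.22 (0.0028), CLSPN -0.2 (0.0159), FANCL 0.2 (0.0294), RAD50 0.15 (0.0468) and XRCC5 0.1 (0.0423), by the same edgeR test. Under 18 alternatives, RAD50 was lost in 13, XRCC5 in 10, FANCL in 7 and CLSPN in 2. The REXO4 level also differed between these settings, at 89.5 CPM in H151_iR4 and 60.2 CPM in iR4, and at 18.1 CPM in KO_2 H151 and 6.40 CPM in R4KO_2 Vehicle; its part in these differences was not tested.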

How the results depend on the processing

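Of 149 called results of named genes, 25 lost their call or turned under 1 or more alternatives: 10 of 103 in the 6 main comparisons, 8 of 20 in the differences of effects and 7 of 26 in the others. Set against R4KO_1 Vehicle instead of R4KO_2 Vehicle, CLSPN reversed, to 0.1856 with BX-795 and 0.165 with H-151 in KO_2, and PALB2 lost its calls (-0.069 and -0.13); no other called result of a named gene changed direction. Of the counts of members higher or lower, 180 stayed within 1.5 times under other scalings, filters, tools and fits and 2 did not; without 1 library, 178 did and 8 did not. Fitted on the compared groups alone, members higher in KO_2 BX_795 against KO_2 H151 numbered 2 (against 1) and members higher in H151_iR4 against Vehicle numbered 2 (against 0). Leaving out 1 library gave 0 to 1 for the first of these counts, 0 to 1 for the second (1 without H151_iR4 replicate 1 or 2), and 5 to 13 members higher in R4KO_2 against R4KO_1 (10 with all libraries). With the replicate block, 13 members were higher and 17 lower in R4KO_1, 15 and 17 in R4KO_2, and 18 and 13 in iR4. Replicate numbers were not used as pairs in the main fits. All genes called between the inhibitors numbered 1387, but 2653 when those groups were fitted alone and 814 to 869 without any 1 of 5 of their libraries. The cause of these shifts was not tested. Counts were few for ATRIP, at 16 to 40 a group, and RAD51B lay below 8 CPM in every library.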

Other observations

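Excision and mismatch repair genes, which belong to neither recombination nor the Fanconi pathway, are given as counts of lists chosen with earlier results known. Of all genes, 34% were higher and 32.2% lower in R4KO_2, 33% and 31.4% in R4KO_1 and 37.1% and 34.8% in iR4. Those shares were 36.4% and 37.1% with BX-795 in KO_2, 35.7% and 37% with H-151 in KO_2, and 35.1% and 36.3% with H-151 in iR4 cells. No difference between a list and all genes was tested. Of 12 nucleotide excision repair genes, 2 were higher and 7 lower in R4KO_2 and likewise in R4KO_1, and 3 were higher and 9 lower in iR4; with inhibitor 8 were higher and 2 lower, 9 and 2, and 8 and 2 (BX-795 and H-151 in KO_2, then H-151 in iR4 cells). UVSSA, which acts where a polymerase stalls at damage, had log2 fold changes of -0.62 in R4KO_2, -0.39 in R4KO_1 and -0.85 in iR4, and 0.9956, 1.07 and 0.93 with inhibitor.

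Of 7 mismatch repair genes, 3 were lower in R4KO_2, 4 in R4KO_1 and 4 in iR4, and with inhibitor 3 were higher and 2 lower, 2 and 2, and 5 higher. Of 13 base excision repair genes, 2 were higher and 5 lower in R4KO_2, 1 and 6 in R4KO_1 and 3 and 3 in iR4, and with inhibitor 5 were higher and 4 lower, 5 and 2, and 6 and 3. APEX1, the abasic site endonuclease, had -0.83, -0.85 and -0.81 in R4KO_2, R4KO_1 and iR4, and 0.65, 0.78 and 0.70 with inhibitor, while NEIL1, a glycosylase for oxidised bases, had 1.03, 0.92 and 0.61, and -1.0008, -1.11 and -0.50, in the same order. These 2 base excision repair genes thus moved in opposite directions in each of the 6 comparisons, each with an edgeR adjusted p under 0.05.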
